A study of Mus musculus with 96 samples.

Results

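The effect of cardiomyocyte loss of Bmal1 at late subjective night was read from 16 of the 96 mouse ventricle libraries of the series, those whose labels give ct 22 or ct 46, which are the same time of day (22 h of circadian time, read from the label ct) in successive cycles. The 8 tamoxifen libraries (Tam, 4 female and 4 male) were set against the 8 vehicle libraries (Veh, 4 female and 4 male), with sex as a block. The other 80 libraries, at 5 other times of day, served to ask which changes were particular to this time. All libraries, Veh included, carried the genotype label iCSBmal1 KO, a mouse in which Bmal1 can be deleted from cardiomyocytes on demand. Tamoxifen is the drug that switches on the recombinase, so Tam hearts stand for the knockout and Veh hearts for the uninduced control. The promoter that drives the recombinase, the interval since induction and the ages of the mice are not stated in the labels. No tamoxifen-treated group that keeps Bmal1 is among the labels, so the drug and the loss of Bmal1 cannot be told apart. The numbers that end the library titles, whose meaning is not stated, do not overlap between Tam and Veh. Anything that follows those numbers cannot be told apart from treatment either. Each sex and treatment had 2 libraries at ct 22 and 2 at ct 46, and the labels do not say that they came from separate animals, so a p-value reflects only how far these libraries spread, which may be technical. The study asked what Bmal1 does in the female and male heart across the day.

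BMAL1, encoded by Arntl, pairs with CLOCK or NPAS2 and activates genes that carry E-boxes, among them Per, Cry, Nr1d1 and Nr1d2. PER and CRY proteins then block the pair, and NR1D1 and NR1D2 repress Arntl, Clock, Npas2, Cry1 and Nfil3 while ROR proteins activate them. In a mouse ventricle the late subjective night is when Arntl transcripts climb towards their peak. Most direct targets of the pair are then near their lowest level. A late-night sample thus sees the activators high and most repressors low, but not Cry1. Cardiomyocytes supply most ventricular RNA, and fibroblasts, endothelial cells, mural cells and macrophages, in which the recombinase is not meant to act, supply the rest. In whole tissue, fewer cells of a type and less RNA per cell cannot be told apart.

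Total counts were 14143582 to 17827924 in the 8 Tam libraries, against 12690579 to 19320537 in the 8 Veh libraries, and the 16 libraries overlapped in their share of mitochondrially encoded counts. Levels are given in CPM, counts normalised to library size with TMM factors. A log2 change is followed by its standard error, as ±, and a gene is called past a Benjamini-Hochberg adjusted p of 0.05 in edgeR's quasi-likelihood test across 15351 genes. The atrial light chain Myl7 reached at most 4.64 CPM in the 8 Tam libraries, against over 10 CPM in 4 of the 8 Veh libraries (81.1, 12.9 and 84.5 CPM in 3 female and 441 CPM in 1 male). Counts were also taken without those 4 libraries, which leaves 1 Veh female and 3 Veh male libraries.

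Arntl (chr7:113207465-113314126, plus strand, GRCm38) was lower in Tam hearts in both sexes, but far from absent. Tam female hearts held 27.3, 26.8, 22.4 and 25.8 CPM, against 39.96, 46.4, 43.1 and 39.5 CPM in Veh female hearts. Tam male hearts held 21.8, 19.7, 17.3 and 18.9 CPM, against 27.1, 22.5, 25.3 and 22.3 CPM in Veh male hearts. Within each sex the 4 Tam libraries lay below the 4 Veh libraries, while across sexes the Tam female and Veh male ranges overlapped. The change was -0.55 ± 0.08 log2 (edgeR adjusted p = 9.199e-05), with -0.75 in females and -0.36 in males, and this difference between the sexes did not pass its own test (edgeR adjusted p = 0.427). Counts over the whole gene do not separate transcripts with and without the deleted part, nor cardiomyocytes from other cells.

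The sign of that change depended on the hour. Mean Arntl levels in Tam hearts were 28.6, 14.9, 9.14, 8.95, 13.9 and 22.5 CPM at time of day 2, 6, 10, 14, 18 and 22 h, against 43.4, 15.5, 2.21, 2.62, 13.2 and 33.3 CPM in Veh hearts (n = 8 libraries per treatment and time). The Tam means thus spanned a narrower range than the Veh means. In a model of all 96 libraries the tamoxifen effect on Arntl was -0.53 at 22 h, where it was not called (adjusted p = 0.193), and -0.60 at 2 h, whereas it was 2.05 at 10 h and 1.80 at 14 h. The deficit of the targeted gene was therefore seen where Veh hearts have most of it, and a surplus where they have least.

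**Figure D1:**
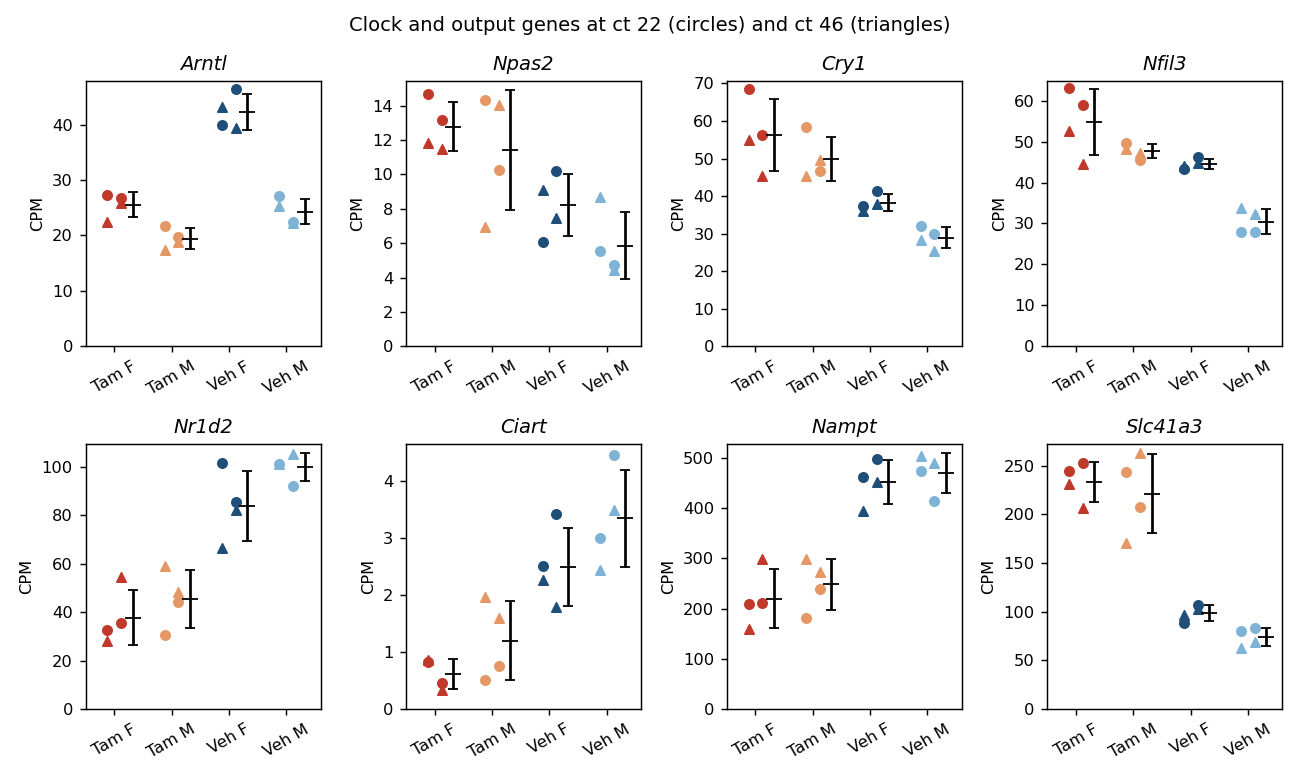
CPM of 8 clock and clock-controlled genes in each of the 16 libraries at ct 22 (circles) and ct 46 (triangles), by treatment and sex, with the mean and SD of each 4 libraries. Nr1d2, Ciart and Nampt lay lower in Tam than in Veh hearts and Npas2, Cry1 and Slc41a3 higher, while Arntl was lower within each sex.

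Across the transcriptome, 2026 of 15351 tested genes were called at late night (13.2%), 1083 of them higher in Tam hearts (7.05%) and 943 lower (6.14%). Most changes were small: the median size among called genes was 0.33 log2, 464 genes passed 1.5-fold, and of these 111 were higher and 353 lower. In 256 genes (1.67% of those tested) the 8 Tam and 8 Veh libraries did not overlap in CPM. The fit by sex alone called 400 genes in females and 1418 in males. Fits of 1 cycle called fewer genes, with 314 higher and 270 lower at ct 22 and 84 higher and 151 lower at ct 46. Of those called at ct 22, 561 had the same sign at ct 46, while 68.7% of all tested genes had the same sign in both cycles. The balance of the call rested on the scaling, since library size alone gave 671 genes higher and 1235 lower. Without the 4 Myl7-high libraries 2283 genes were called (14.9%), 1108 higher (7.22%) and 1175 lower (7.65%), of which 1181 were among the 2026.

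Among 39 tested members of the clock lists 22 were called (56.4%, against 13.2% of all tested genes), 11 higher and 11 lower. In 4 of the 39, among them Cry1, Nr1d2 and Nampt, the Tam and Veh libraries did not overlap, against 1.67% of all tested genes. The partners of BMAL1 were higher. Clock, which encodes its usual partner, rose by 0.41 ± 0.06 log2, with 90.4 to 146 CPM (median 115) in Tam hearts against 71.3 to 105 CPM (median 82.7) in Veh hearts. Npas2, the alternate partner, ran from 6.97 to 14.7 CPM (median 12.5) in Tam hearts against 4.46 to 10.2 CPM (median 6.77) in Veh hearts, a rise of 0.78 ± 0.16. Of the nuclear receptors that activate Arntl, Rorb rose by 1.12 ± 0.21, whereas Rora fell by 0.25 on the log2 scale. Arntl2, a paralogue of Arntl, had a change of -0.14 ± 0.09 that was not called.

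The repressors split by family. Nr1d2, which encodes REV-ERBβ, held 28.3 to 59.0 CPM (median 39.9) in Tam hearts against 66.4 to 105 CPM (median 96.6) in Veh hearts, a change of -1.16 ± 0.13. Nr1d1, for REV-ERBα, ran from 11.9 to 15.4 CPM (median 13.98) in Tam hearts against 10.4 to 31.6 CPM (median 20.6) in Veh hearts, with a change of -0.56 ± 0.16. Both receptors thus fell, Nr1d2 with no overlap between the groups. Ciart, a repressor of the CLOCK and BMAL1 pair, was near the bottom of its daily range in either group, with 0.326 to 1.96 CPM (median 0.789) in Tam hearts against 1.79 to 4.45 CPM (median 2.76) in Veh hearts. Its fall of 1.72 on the log2 scale (SE 0.25) was the deepest of the clock lists. Cry1 moved the other way, with 45.3 to 68.5 CPM (median 52.3) in Tam hearts against 25.4 to 41.5 CPM (median 34.04) in Veh hearts, a rise of 0.65 ± 0.08, and Cry2 rose by 0.40 ± 0.06. In Veh hearts the late-night mean of Cry1, 33.6 CPM, was the highest of its 6 times of day.

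The Per genes showed less. Per3 fell by 0.51 on the log2 scale (SE 0.15, edgeR adjusted p = 0.0291), and the call was lost without the 4 Myl7-high libraries (-0.37, adjusted p = 0.206) and on leaving out any of 7 single libraries. Per1 had 14 to 53.4 CPM (median 24.8) in Tam hearts against 16.9 to 38.5 CPM (median 25.3) in Veh hearts, ranges that overlapped throughout. Per2 had a change of 0.46 ± 0.17 (adjusted p = 0.0825), which passed the threshold at 0.0498 without the Myl7-high libraries and at 0.0456 by DESeq2. Bhlhe40 and Bhlhe41, helix-loop-helix repressors, had changes of -0.18 ± 0.13 and 0.06 ± 0.07 that were not called.

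The output factors read D-boxes: Dbp, Tef and Hlf activate through them and Nfil3 represses through them. Nfil3 rose by 0.45 ± 0.07 log2, with 44.6 to 63.0 CPM (median 49.0) in Tam hearts against 27.9 to 46.2 CPM (median 38.6) in Veh hearts. Tef fell slightly, by 0.20 on the log2 scale (edgeR adjusted p = 0.0349), a call lost without the Myl7-high libraries (-0.19, adjusted p = 0.0776). Dbp, at the lowest of its 6 mean levels in Veh hearts at this hour, was at 8.95 to 16.1 CPM (median 11.1) in Tam hearts against 6.82 to 25.3 CPM (median 12.6) in Veh hearts and was not called (-0.24 ± 0.17). Hlf was at -0.06 ± 0.10. Of 7 tested kinases and ligases that set the stability of PER and CRY, Btrc, Fbxw11 and Gsk3b rose, by 0.18, 0.27 and 0.19 log2, and 4 were not called; on library size alone, and without the Myl7-high libraries, 1 and 2 of the 7 were higher. Of 11 clock-controlled outputs 4 fell and 1 rose. The called share was 42.9% of the kinases and ligases and 45.5% of the outputs, against 13.2% of all tested genes. Nampt, the rate-limiting enzyme of NAD salvage, had 160 to 299 CPM (median 225) in Tam hearts against 394 to 503.6 CPM (median 468) in Veh hearts, a change of -1.0 ± 0.11. Usp2, a deubiquitinase, Tspan4 and Coq10b, a coenzyme Q chaperone, fell by 0.33, 0.40 and 0.35 on the log2 scale, and Ppp1r3c, a glycogen-targeting subunit of a protein phosphatase, rose by 0.31.

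The windows of 250 bases before to 50 bases after the transcription start (RefSeq, GRCm38.p6) were searched on both strands for the E-box CACGTG that CLOCK and BMAL1 bind, the D-box TTATGTAA and the receptor core site AGGTCA. A promoter was held for 30 of the 39 clock list members, and 11 of them (36.7%) had an E-box, 2 (6.67%) a D-box and 6 (20%) the core site, against 11.5%, 0.714% and 14.9% of 10928 tested genes with a promoter. Over all called genes the E-box share was near that background, at 10.5% of 847 genes higher in Tam hearts and 13.9% of 706 genes lower. The same windows held AGGTCA in 18.2% of the higher genes and 16% of the lower, and the D-box in 0.472% and 1.70%. A match is a description of these letters and no evidence of binding. The 5 windows shown belong to genes that the results turn on: the deepest fall among repressors (Ciart, chr3:95882179-95882478, minus strand), a repressor that rose (Cry1, chr10:85185005-85185304, minus strand), a pair of D-boxes (Per3, chr4:151044616-151044915, minus strand), a D-box repressor that rose (Nfil3, chr13:52980990-52981289, minus strand) and a gene of the top 3 that rose (Slc41a3, chr6:90618996-90619295, plus strand). Each runs 5′ to 3′ on the strand of its gene, with E-boxes, D-boxes or AGGTCA (or its complement TGACCT) in capitals.
Ciart: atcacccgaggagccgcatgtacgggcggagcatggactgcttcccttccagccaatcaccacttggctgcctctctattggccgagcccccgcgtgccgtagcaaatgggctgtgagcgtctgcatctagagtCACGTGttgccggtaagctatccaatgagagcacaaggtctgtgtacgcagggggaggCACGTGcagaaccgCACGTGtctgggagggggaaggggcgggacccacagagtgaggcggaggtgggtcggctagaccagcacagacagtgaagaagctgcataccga
Cry1: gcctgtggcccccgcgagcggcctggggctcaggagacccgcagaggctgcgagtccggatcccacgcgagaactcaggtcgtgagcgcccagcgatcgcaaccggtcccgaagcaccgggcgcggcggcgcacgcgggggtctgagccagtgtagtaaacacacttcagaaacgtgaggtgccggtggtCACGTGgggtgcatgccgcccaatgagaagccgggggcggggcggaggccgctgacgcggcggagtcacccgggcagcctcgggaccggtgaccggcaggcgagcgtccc
Per3: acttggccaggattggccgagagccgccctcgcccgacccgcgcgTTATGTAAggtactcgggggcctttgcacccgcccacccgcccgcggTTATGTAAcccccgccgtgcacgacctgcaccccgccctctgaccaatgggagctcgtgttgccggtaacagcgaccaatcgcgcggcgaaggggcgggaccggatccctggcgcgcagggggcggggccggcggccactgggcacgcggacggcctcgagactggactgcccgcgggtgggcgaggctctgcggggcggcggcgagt
Nfil3: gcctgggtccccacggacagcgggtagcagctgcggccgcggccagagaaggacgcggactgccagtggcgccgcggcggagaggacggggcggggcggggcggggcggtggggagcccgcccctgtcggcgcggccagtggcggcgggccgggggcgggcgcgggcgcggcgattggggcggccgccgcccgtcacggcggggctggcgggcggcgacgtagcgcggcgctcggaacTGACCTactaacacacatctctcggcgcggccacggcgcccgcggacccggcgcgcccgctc
Slc41a3: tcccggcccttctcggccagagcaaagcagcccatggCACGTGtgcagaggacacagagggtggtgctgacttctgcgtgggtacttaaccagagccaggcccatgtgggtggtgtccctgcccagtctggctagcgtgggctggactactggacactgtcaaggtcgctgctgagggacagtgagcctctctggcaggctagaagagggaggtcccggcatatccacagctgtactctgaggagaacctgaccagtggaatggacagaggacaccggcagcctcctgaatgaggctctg
Ciart, lower in Tam hearts, held 3 E-boxes, whereas Cry1 and Slc41a3, both higher, held 1 each, so an E-box in the window stood beside changes of either sign.

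Outside the clock, the genes with the steepest rises among those with at least 5 CPM were Plekhh1, Cdkn1a, Slc41a3, Hcn2, Slc17a7, Ddah1, Colq and Lingo3, between 1.09 and 1.48 log2 higher. Slc41a3, a magnesium transporter, had 171 to 263 CPM (median 237) in Tam hearts against 62.8 to 107 CPM (median 86.1) in Veh hearts, a change of 1.39 ± 0.09 (2.62-fold, edgeR adjusted p = 2.564e-08) with no overlap. Cdkn1a, which encodes the cell cycle inhibitor p21, had 59.9 to 161 CPM (median 97.5) in Tam hearts against 25.3 to 74.4 CPM (median 35.04) in Veh hearts, a change of 1.47 ± 0.21. Plekhh1 ran from 9.50 to 22.4 CPM (median 14.1) in Tam hearts against 3.28 to 8.14 CPM (median 4.98) in Veh hearts (1.48 ± 0.14). Hcn2, a pacemaker channel subunit, had 39.5 to 74.2 CPM (median 55.5) in Tam hearts against 23.95 to 31.4 CPM (median 25.8) in Veh hearts (1.12 ± 0.11). The other 4 encode the vesicular glutamate transporter VGLUT1 (Slc17a7), an enzyme that breaks down the nitric oxide synthase inhibitor ADMA (Ddah1), the tail subunit of acetylcholinesterase (Colq) and a leucine-rich repeat membrane protein (Lingo3).

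Of the 8 deepest falls, 5 were in atrial or atrium-rich genes or rested on the same libraries (Sln, Mybphl, Myl7, Myl4 and Dkk3), and 3 did not. Ces1d, a carboxylesterase that hydrolyses triglyceride, had 13.6 to 109 CPM (median 47.2) in Tam hearts against 237 to 295 CPM (median 246) in Veh hearts, a change of -2.37 ± 0.27 with no overlap. Ighg2c, an immunoglobulin heavy chain, ran from 0.376 to 3.64 CPM (median 1.06) in Tam hearts against 2.79 to 16 CPM (median 7.87) in Veh hearts (-2.71 ± 0.21), and 0 of 4 tested lymphocyte markers were called by edgeR or DESeq2, with 0 at an unadjusted p under 0.05. The list of 7 lymphocyte markers summed to only 3.15 to 6.28 CPM in Tam hearts against 1.95 to 4.64 CPM in Veh hearts. At such low levels a change could be missed.

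The 4 atrial genes were called through the Veh libraries named above. Myl7 had 4.64, 0.376, 0.785 and 0.587 CPM in Tam female hearts, against 81.1, 0.398, 12.9 and 84.5 CPM in Veh female hearts. It had 0.358, 0.517, 0.338 and 0.0638 CPM in Tam male hearts, against 441, 0.156, 1.63 and 1.67 CPM in Veh male hearts. The other 4 Veh libraries thus lay within the Tam range. The fitted change of Myl7 was -6.29 ± 1.37 with all libraries and -0.64 (adjusted p = 0.669) without the 4. Without the 4, Myl4 was at -0.0018 in place of -5.08 and Mybphl at -0.48 in place of -6.53. The sign turned for Sln, a pump inhibitor (1.17 in place of -7.60), Dkk3 (0.35 in place of -2.86) and the adipocyte gene Adipoq (0.47 in place of -2.98), and none of these genes was called then. The summed level of the atrial markers was 78.6 to 306 CPM in Tam hearts against 119 to 2400 CPM in Veh hearts. Vwf, an endothelial glycoprotein, followed, with 53.7 to 88.9 CPM (median 63.3) in Tam hearts against 57.6 to 157 CPM (median 108) in Veh hearts, of which the 4 Myl7-high libraries held the 4 highest, and its fall of 0.66 on the log2 scale became -0.16 (adjusted p = 0.542) without them.

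**Figure D2:**
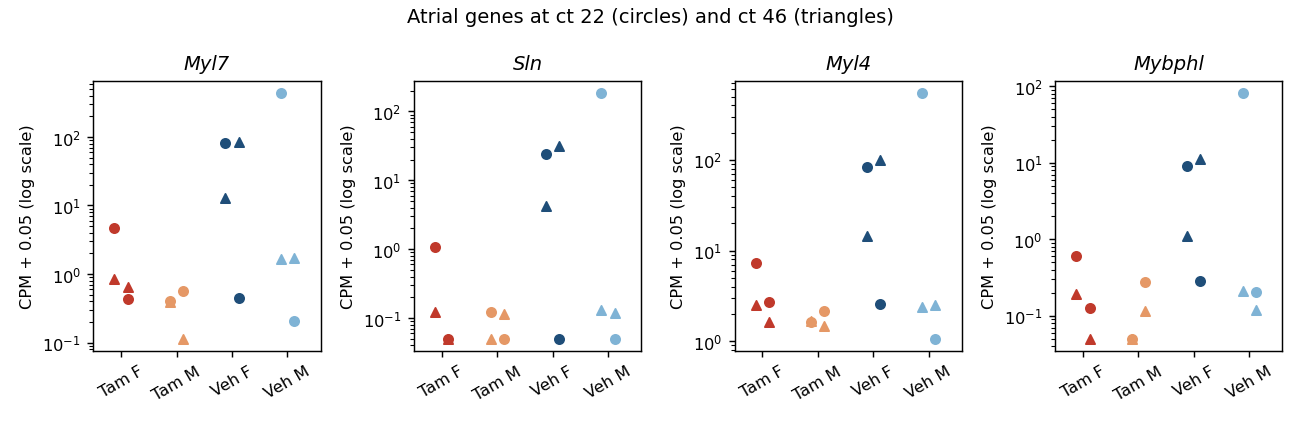
CPM plus 0.05, on a log scale, of 4 atrial genes in each of the 16 libraries at ct 22 (circles) and ct 46 (triangles). Of 8 Veh libraries 4 stood above all Tam libraries in each gene, with Myl7 at 12.9 to 441 CPM.

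Over all 16 libraries, 6 of 16 tested genes of calcium handling in the cardiomyocyte were called higher and 2 lower. These called genes are 50% of the list, against 13.2% of all tested genes. Smaller fits did not all keep that balance, with 3 higher and 1 lower at ct 22 alone, against 0 and 2 at ct 46 alone. In females alone 1 was higher and 2 lower, and in males alone 2 were higher and 3 lower. Casq2, the calcium buffer of the sarcoplasmic reticulum, had 1472 to 1845 CPM (median 1547) in Tam hearts against 1078 to 1356 CPM (median 1125) in Veh hearts, a rise of 0.45 ± 0.06 with no overlap. Srl, the sarcoplasmic reticulum protein sarcalumenin, rose by 0.39 ± 0.06 and Ryr2, the release channel, by 0.35 ± 0.10, a call that library size alone ended (adjusted p = 0.0673). Strit1, which encodes the pump activator DWORF, went the other way, with 2.14 to 7.44 CPM (median 4.79) in Tam hearts against 6.17 to 15.8 CPM (median 11.4) in Veh hearts, a fall of 1.11 on the log2 scale. The second gene that fell was Sln, described above. Without the Myl7-high libraries 5 of 16 were higher and 2 lower.

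Of 31 tested ion channel genes 7 rose and 5 fell (38.7% called, against 13.2% of all tested genes). Clcn1, a chloride channel, was at 2.07 to 11.97 CPM (median 6.62) in Tam hearts against 10.4 to 25.9 CPM (median 16.7) in Veh hearts, and Kcnv2, a modifier subunit of potassium channels, was at 8.49 to 23.7 CPM (median 16.6) in Tam hearts against 20.5 to 42.2 CPM (median 29.6) in Veh hearts. Both fell, by 1.37 and 0.84 on the log2 scale. Kcnip2, a partner of the transient outward channel that was named after its values were seen, fell by 0.56 on the log2 scale. Without the Myl7-high libraries 7 were higher and 4 lower, and on library size alone 4 were higher and 5 lower. Of 21 sarcomere genes Mybpc3, with 4433 to 5214 CPM (median 4937) in Tam hearts against 3201 to 4110 CPM (median 3589) in Veh hearts, rose by 0.43 ± 0.06 and did not overlap, Myom1 rose by 0.32 ± 0.06, and Tcap, the titin cap, fell by 0.51 on the log2 scale. These 3 called genes are 14.3% of the sarcomere list, near the 13.2% of all tested genes, and without the Myl7-high libraries 2 were higher and 5 lower. Of 11 tested cardiac stress markers Gdf15, a stress cytokine, and the atrial Mybphl fell and 0 were called higher, against 2 higher and 1 lower without the Myl7-high libraries and 1 higher by DESeq2. Gdf15 and Mybphl are 18.2% of that list.

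Triglyceride genes fell more often than they rose, with 5 of 11 lower and 1 higher (54.5% called, against 13.2% of all tested genes). Dgat2, which makes triglyceride, had 73.7 to 218 CPM (median 141) in Tam hearts against 232 to 413.5 CPM (median 325) in Veh hearts, a fall of 1.20 on the log2 scale (SE 0.13) with no overlap. Ces1d is given above, and the other 3 that fell, named after their values were seen, were Lipe (-0.30), Plin4 (-0.30) and Gpam (-0.23). Dgat1, the other acyltransferase of the last step, rose by 0.27 ± 0.06. Of 30 genes of fatty acid uptake and oxidation 2 rose and 3 fell: Acot1, a thioesterase, had 9.56 to 18.4 CPM (median 13.1) in Tam hearts against 13.6 to 34.8 CPM (median 21.03) in Veh hearts (-0.78 ± 0.15), and Ucp3 and Cpt1a fell by 0.72 and 0.32 on the log2 scale. That count shifted without the 4 Myl7-high libraries, to 13 of the 30 lower and 1 higher. It also shifted with the scaling, to 7 lower and 1 higher on library size alone. Of 26 nuclear oxidative phosphorylation genes 0 were called by edgeR over all libraries (3 at an unadjusted p under 0.05, 1 called by DESeq2). Without the 4 Myl7-high libraries 14 of the 26 were lower. Whether the shifts without the 4 came from their removal or from resting on 1 Veh female library was not tested. In glucose and insulin genes 5 of 30 rose and 1 fell, against 4 and 4 without the Myl7-high libraries. The called share was 16.7% in the fatty acid list and 20% in the glucose and insulin list, against 13.2% of all tested genes. Irs1, the insulin receptor substrate, rose by 0.43 ± 0.07, Akt2, an insulin-signalling kinase, by 0.23 ± 0.05 and Pkm, a glycolytic pyruvate kinase, by 0.235 ± 0.05.

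Heat shock genes were higher or not called: 5 of 14 rose and 0 fell, against 4 and 1 without the Myl7-high libraries. The called share of the list was 35.7%, against 13.2% of all tested genes. At ct 22 alone 4 of 14 were called higher (median 0.34 log2), against 0 at ct 46 alone (median 0.098 log2). Hsph1, a co-chaperone of the HSP110 family, had 113 to 210 CPM (median 153) in Tam hearts against 64.2 to 127 CPM (median 112) in Veh hearts (0.64 ± 0.10), Hsp90aa1 rose by 0.47 ± 0.09 and Chordc1 by 0.30 ± 0.06. Of 11 endoplasmic reticulum chaperones, 11 immediate early genes and 15 interferon response genes 0 were called by edgeR or DESeq2, with 2, 1 and 0 at an unadjusted edgeR p under 0.05. Of 13 genes of the integrated stress response 2 rose and 3 fell (38.5%), against 0 and 1 without the Myl7-high libraries. Of 13 p53 targets Cdkn1a alone was called (7.69%). Of 14 glucocorticoid targets Cdkn1a and Ddit4 rose and 3 fell (35.7%). The 3 that fell, named after their values were seen, were Mt1 and Mt2, which encode metallothioneins, and Fkbp5, a steroid receptor chaperone. Mt1 had 39.5 to 54.2 CPM (median 46.4) in Tam hearts against 53.7 to 104 CPM (median 71.2) in Veh hearts.

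**Figure D3:**
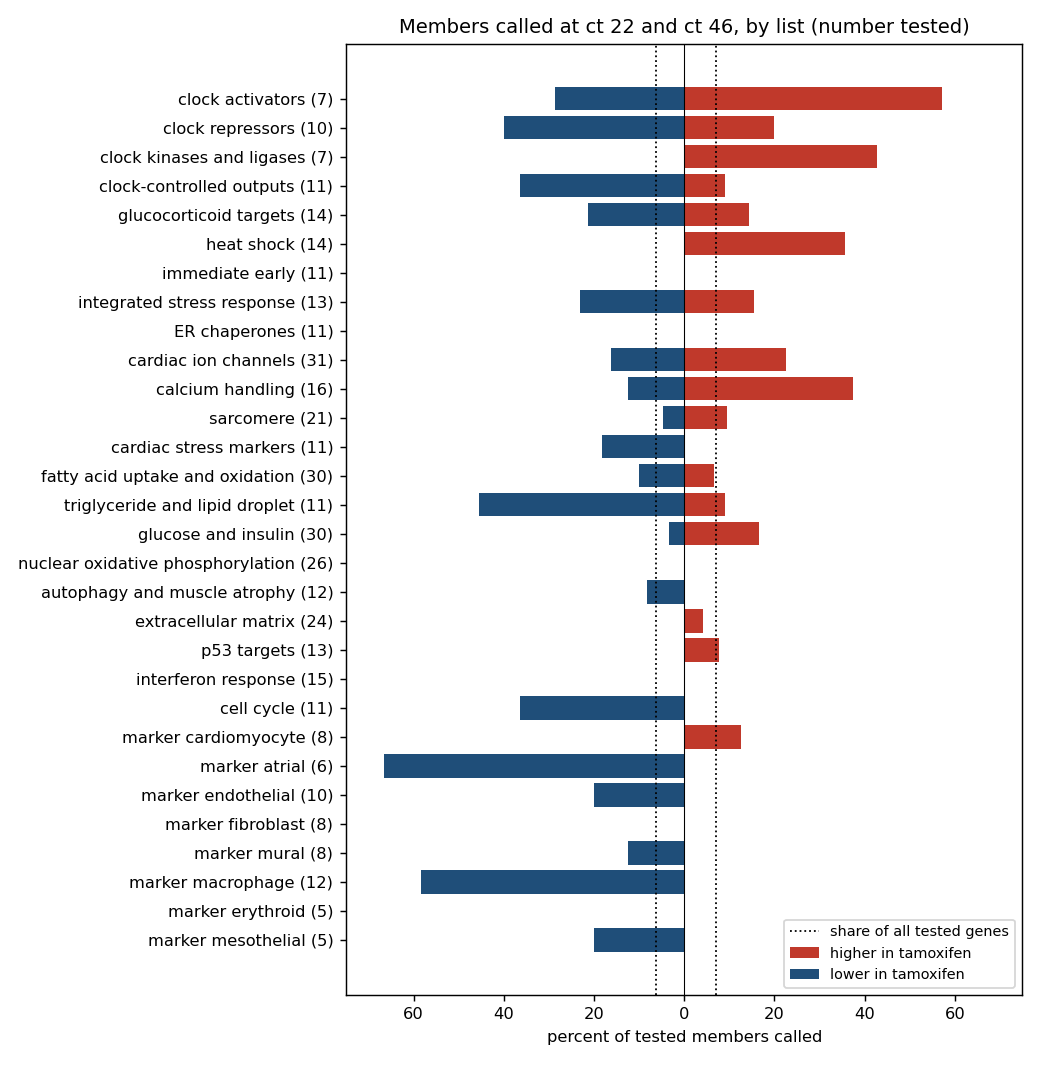
Percent of the tested members of each gene list that were called higher (red, right) or lower (blue, left) in Tam than in Veh hearts at ct 22 and ct 46, with the number tested in parentheses. Dotted lines give the share over all tested genes, 7.05% higher and 6.14% lower. Clock, triglyceride, macrophage and atrial lists reach furthest from the lines.

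Markers of other cells were read for the same libraries. Of 12 macrophage markers 7 were lower and 0 higher, and all 12 changes were below 0, between -0.50 and -0.25 log2. The fall was seen mostly in 1 cycle. At ct 22 alone 6 of 12 were called lower (median -0.59 log2), against 0 at ct 46 alone (median -0.14). In females alone 0 of 12 were called lower (median -0.34), against 4 in males alone (median -0.42). The summed level of the 12 markers was at least 292 CPM in Tam hearts, all of which lay below the range of 416 to 535.7 CPM in Veh hearts. The highest Tam level came close to the lowest Veh level. C1qa, a complement subunit made by resident macrophages, had 30.5 to 40.5 CPM (median 36.7) in Tam hearts against 43.1 to 55.1 CPM (median 47.5) in Veh hearts (-0.43 ± 0.07), and without the Myl7-high libraries 4 of 12 were lower. Of 11 cell cycle genes 4 fell, among them Mki67, a marker of dividing cells (-0.87 ± 0.21), Ccna2 and Top2a, against 2 without those libraries, and the summed level was 57.3 to 64.3 CPM in Tam hearts against 66.1 to 79.5 CPM in Veh hearts. Of 8 fibroblast markers 0 were called by edgeR or DESeq2 (1 at an unadjusted p under 0.05), with a summed level of 1694 to 3067 CPM in Tam hearts against 1959 to 2545 CPM in Veh hearts. Of 10 endothelial markers Vwf and Pecam1 fell, and neither was called without the Myl7-high libraries. Of 8 cardiomyocyte markers, which were all detected, Ryr2 rose, and their summed level was 43030 to 51680 CPM in Tam hearts against 39550 to 48150 CPM in Veh hearts. Of 8 mural cell markers Acta2, smooth muscle actin, fell by 0.73 on the log2 scale, of 24 extracellular matrix genes Col4a1, a basement membrane collagen, rose by 0.26 (library size alone called 0 higher and 1 lower), and of 12 autophagy and atrophy genes Fbxo31 fell by 0.195, each named after its values were seen. Without the Myl7-high libraries 4 of 5 erythroid markers and 4 of 12 autophagy and atrophy genes were lower, against 0 and 1 with them. With all 16 libraries the called share was 58.3% of macrophage markers, 36.4% of cell cycle genes and 20% of endothelial markers. It was 12.5% of cardiomyocyte markers and of mural markers, 4.17% of matrix genes and 8.33% of autophagy and atrophy genes. The share over all tested genes was 13.2%. The part that macrophages, dividing cells or tissue from the atria have in the other changes was not tested.

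A difference of the tamoxifen effect between the sexes was called for 1 gene, 0.00651% of those tested, with 1429 genes at an unadjusted p under 0.05. Fits of 1 cycle, with 2 libraries per sex and treatment, called 1 gene at ct 22 alone and 961 at ct 46 alone. Inmt, an indolethylamine N-methyltransferase (chr6:55170626-55175043, minus strand), had 29.4, 21.5, 36.7 and 12.9 CPM in Tam female hearts, against 6.22, 5.97, 6.03 and 10.5 CPM in Veh female hearts. It had 13.7, 15.7, 11.6 and 13.3 CPM in Tam male hearts, against 34.3, 27.9, 21.9 and 15.8 CPM in Veh male hearts. All Tam libraries lay above the Veh libraries in females and below them in males. The effect was 1.78 log2 in females and -0.91 in males, a difference of 2.71 ± 0.39 (female minus male, edgeR adjusted p = 0.0296). The call was lost on leaving out any 1 of 13 among the 16 libraries and on library size alone (adjusted p = 0.0537), and DESeq2 called 33 genes where edgeR called 1.

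Genes called at late night mostly changed with the same sign at other hours. Of 2010 called genes also tested in the 80 libraries of the other 5 times, 1949 (97.0%) had the same sign there, against 74.9% of 15275 genes tested in both. The other times called 1782 of them with the same sign, 225 were not called, and 3 were called with the opposite sign: Arntl, Ifit1bl1, an interferon-induced family member, and Lrrn4, a mesothelial gene. Lrrn4 had 0.446 to 3.57 CPM (median 1.80) in Tam hearts against 0.234 to 6.07 CPM (median 4.03) in Veh hearts, and the fall of 1.17 on the log2 scale was not called without the Myl7-high libraries (adjusted p = 0.165). The 5 mesothelial markers summed to 9.95 to 26.3 CPM in Tam hearts against 7.96 to 39.5 CPM in Veh hearts, and their part in that fall was not tested. Over all genes 61.3% were called at the other 5 times together, where 80 libraries entered the fit. Between single times of day the counts of called genes were 638 (4.14%) at 2 h, 195 higher and 232 lower (2.7% together) at 6 h, 1376 (8.71%) at 10 h, 3729 (24%) at 14 h, 2078 (13.5%) at 18 h and 2026 at 22 h, each from 16 libraries; leaving out 1 late-night library gave 1487 to 2399, a range that holds the count at 18 h.

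**Figure D4:**
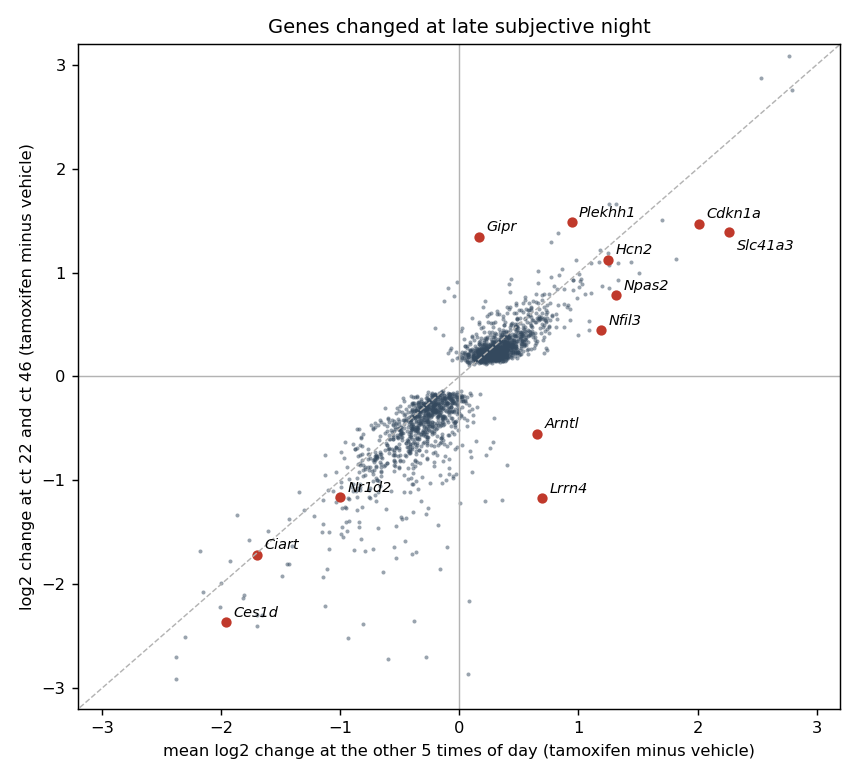
Log2 change (Tam minus Veh) at ct 22 and ct 46 against the log2 change over the other 5 times of day, for 2006 genes called at late night. Points on the dashed line changed equally, 4 further genes (Fut2, Myl4, Myl7 and Nfe2l3) lie outside the axes, and Arntl and Lrrn4 sit below 0 at late night and above 0 at the other times.

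When the difference itself was tested, as the effect at 22 h minus the mean effect at the other 5 times, 0 of 15629 genes passed (0%), with 1131 at an unadjusted p under 0.05 and 0 called by DESeq2. The smallest adjusted p was 0.225, shared by Arntl and Rasef. The standard error of this departure had a median of 0.11 log2 in genes with at least 5 CPM, so moderate departures in single genes could not be told from 0. The values of the 5 genes with the smallest p are given as a description, since they were picked by it. Arntl departed by -1.18 ± 0.26 (95% interval -1.70 to -0.66). Rasef, a Rab-family GTPase, departed by -1.03 ± 0.23 and had 1.28 to 3.997 CPM (median 1.93) in Tam hearts against 1.95 to 3.81 CPM (median 2.87) in Veh hearts. Gipr, the receptor of the incretin GIP, departed upwards by 1.20 ± 0.28, with 1.59 to 3.23 CPM (median 2.03) in Tam hearts against 0.650 to 1.25 CPM (median 0.821) in Veh hearts, and no overlap. Its mean in Tam hearts was 1.92, 1.28, 1.0, 1.17, 1.81 and 2.29 CPM from 2 h to 22 h, against 1.55, 1.29, 1.19, 1.13, 1.12 and 0.878 CPM in Veh hearts.

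Pdk4, the kinase that shuts off pyruvate dehydrogenase, departed by -1.71 ± 0.41 (interval -2.52 to -0.89). Its mean in Tam hearts was 871, 972, 1282, 510, 303 and 513 CPM from 2 h to 22 h, against 729, 566, 296, 204, 353 and 967 CPM in Veh hearts, so the peak lay at 10 h in Tam hearts and at 22 h in Veh hearts. At late night its own change of -0.91 ± 0.33 was not called (adjusted p = 0.0755). The 4 Myl7-high Veh libraries held at most 645 CPM of Pdk4 and the other 4 held 1599, 635, 1894 and 1651 CPM, and without the 4 the change was -1.48 (adjusted p = 0.00658). Rit1, a Ras-related GTPase, departed by -0.38 ± 0.09, with a mean of 64.2 CPM in Tam hearts against 84.6 CPM in Veh hearts at late night.

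Single hours were then set against late night one by one. Against 10 h, the opposite time of day, 6 genes differed (0.0384%): Arntl (-2.58 ± 0.38), Pdk4 (-2.97 ± 0.53), Rasef (-1.58 ± 0.31), Dyrk2, Vstm4 and Chka. Against 14 h, 17 differed (0.109%), among them Arntl (-2.33 ± 0.38), Slc41a3 (-1.89 ± 0.33), Rasef, Rit1 and the chaperone or co-chaperone genes Hsp90aa1 (0.86 ± 0.16), Dnaja1 and Chordc1. None differed from 2 h, 6 h or 18 h by edgeR, where 832, 819 and 454 genes had an unadjusted p under 0.05. These 5 tests share the late-night libraries. Hsp90aa1 had mean levels of 446 CPM in Tam hearts against 315 CPM in Veh hearts at 22 h, and of 276 CPM in Tam hearts against 358 CPM in Veh hearts at 14 h, so its sign turned between those hours.

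No clock gene had a called departure by edgeR over all 96 libraries, while limma voom with quality weights called Arntl and Nfil3 among 8 genes, so effects by hour are given here as a description. Nfil3 had effects of 0.96, 1.58, 1.53, 0.92, 0.96 and 0.47 log2 from 2 h to 22 h, a departure of -0.72 ± 0.19 (adjusted p = 0.475). Slc41a3 ran at 1.11, 1.75, 2.84, 3.30, 2.33 and 1.41, while its mean in Tam hearts stayed between 222 and 263 CPM at all 6 times and in Veh hearts lay between 24.5 and 125 CPM. The late-night Veh mean, 86.4 CPM, was the second highest of the 6. Npas2 ran at 0.42, 0.89, 1.54, 2.09, 1.62 and 0.80. Nr1d2 lay between -1.48 and -0.76, with -1.14 at 22 h. Ciart lay between -1.96 and -1.56 with -1.69 at 22 h, a departure of 0.01 whose interval of -1.77 to 1.79 is wide. Dbp, not called at late night, had effects between -1.36 and -0.54 at the other 5 times.

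**Figure D5:**
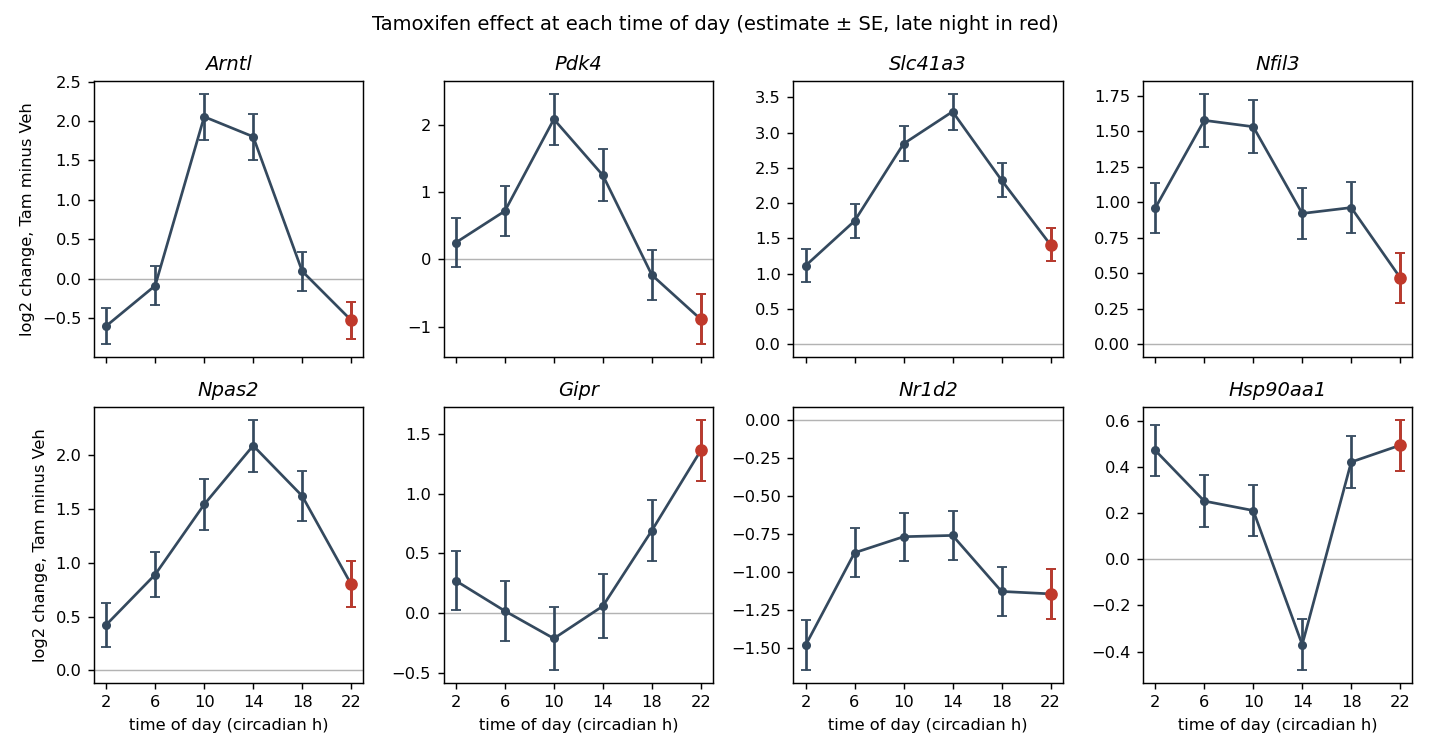
Tamoxifen effect (log2, Tam minus Veh, estimate ± SE from the model of all 96 libraries) on 8 genes at each of 6 times of day, late night in red. Arntl and Pdk4 were above 0 at 10 h and 14 h and below 0 at 22 h, while Nr1d2 stayed below 0 throughout.

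Tests against other hours also hold 3 kinds of library that stand apart, none of them at late night. In 1 Tam library the levels of sex-linked genes went against its F label, 5 Tam libraries held under 6 CPM of Arntl, and 10 Veh male libraries had a raised share of transcripts of the TEC biotype, which marks loci with little evidence. Leaving out the first 2 kinds gave 7 called departures, all negative (Arntl, Nfil3, Slc41a3, Adam19, Ypel2, Rasef and Rit1). Since those libraries were chosen by Arntl, its value of -1.33 there is no independent evidence. Leaving out the 14 libraries with over 10 CPM of Myl7 gave 2, Rit1 and Pdk4. Leaving out only the library against its F label, or only the 10 Veh male libraries high in TEC, gave 0.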

How the data were processed

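Poly-A selected mRNA libraries of mouse ventricle were sequenced, and the deposited values are raw counts per gene symbol, 1 column per library, made by the authors. HISAT2, Picard and HTSeq with the builds GRCm38 and mm10 are named per the submitters' processing notes; no version or strand setting is given in the sources used here. The table held 55376 rows, of which 26 had date-like names (0.1371% of counts in the 16 libraries). These rows went through the same filter and tests as the others, but could not be named among the highest or lowest changes. Genes passing edgeR's filterByExpr (minimum count 10) were scaled by TMM and tested with edgeR 4.0.16 in R 4.3.3 (quasi-likelihood test, Benjamini-Hochberg adjustment over all tested genes), with sex as a block on 16 libraries (13 residual degrees of freedom). The late-night departure came from a model of all 96 libraries with a block for each sex and time of day and 1 tamoxifen effect per time. Alternatives used DESeq2 1.42.0, limma 3.58.1 and other scalings, filters and sets of libraries. The scripts were tested on simulated data. Members and gene lists were chosen with earlier results of these data known. Named genes were the clock lists, the 8 highest and 8 lowest called changes with a mean of at least 5 CPM, up to 3 called members of each other list by adjusted p, and called sex differences and departures. As no departure was called, the genes with the smallest p in that test, and others so marked in the text, were chosen after their values were seen. Gene coordinates are from GENCODE M21 (15256 of 15351 tested symbols matched) and promoters from RefSeq, GRCm38.p6. Replicate libraries differed by more than sampling noise (chi-square per gene of 3.858 to 40.48 over 8 pairs), so none was counted as a duplicate. Results for some genes are not reported here.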

Additional observations from a re-analysis of the deposited data

Results flagged for a closer look

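In groups of 8 libraries, 13 of 228 groups (114 genes) had 1 library set apart by Dixon's rule, where chance flags about 1 in 20. In the Tam groups these were, in a female library at ct 22, the atrial genes Sln (1.039 CPM), Myl7 (4.64 CPM) and Myl4 (7.272 CPM). A Tam female library at ct 46 was lowest for Kcnv2 (8.493 CPM) and Strit1 (2.141 CPM). A Tam male library stood apart at ct 22 for Pkm (1276 CPM), and another at ct 46 for Npc1l1 (0.947 CPM). In the Veh groups 1 male library at ct 22 stood apart for Cry2 (44.94 CPM), Atf5 (45.33 CPM) and Lrrn4 (0.2341 CPM). A Veh male library at ct 46 stood apart for Hcn2 (31.42 CPM), and Veh female libraries for Pecam1 at ct 22 (188.2 CPM) and Usp2 at ct 46 (70.82 CPM).

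The tamoxifen effect on Inmt differed between the sexes by 2.708 log2 (female minus male), in opposite directions.

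The tamoxifen effect at 22 h differed from that at 10 h in 6 genes, past an edgeR adjusted p of 0.05. The differences (22 h minus 10 h, log2) were -2.974 for Pdk4, -2.581 for Arntl, -1.577 for Rasef, -0.6231 for Dyrk2, -0.5952 for Vstm4 and 0.5587 for Chka. It differed from that at 14 h in 17 genes. Among them, the effect at 22 h was the more negative one for Arntl (-2.329), Slc41a3 (-1.889), Rasef (-1.588), Ifit1bl1 (-1.201), Gm12966 (-1.018), Leo1 (-0.7884), Tbcel (-0.5604) and Rit1 (-0.5536). It was the more positive one for Npc1l1 (2.077), Gm12346 (0.876), Hsp90aa1 (0.8631), Dnaja1 (0.8147), P4ha1 (0.7941), Chordc1 (0.5558), Larp4b (0.522) and Ahsa2 (0.4351). Both sets were found with the same 16 late-night libraries.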

How the results depend on the processing

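The late-night tamoxifen effect, called in 13.2% of genes, was called in 13.05% with RLE scaling, 12.42% on library size alone (671 higher, 1235 lower; the median of all genes then was -0.049 log2), 15.06% by DESeq2, 12.72% with cycle as a block and 9.687% to 15.63% on leaving out 1 library. With no filter 1705 genes were called. The share was 5.97% in the model of all 96 libraries, 3.804% at ct 22 alone, 1.531% at ct 46 alone and 2.606% in females alone, and 1418 genes were called in males alone; the fits of 1 cycle or sex hold 8 libraries. The sex difference, called for 1 gene, was called for 0 on library size alone and without the Myl7-high libraries, 30 with no filter, 33 by DESeq2, 961 at ct 46 alone (2 libraries per group, 1 gene shared) and 0 to 4 on leaving out 1 library. Called departures numbered 0 in the main test and by DESeq2, RLE and library size, 1 in females alone (Arntl), 2 without Myl7-high libraries, 6 against 10 h, 17 against 14 h, 7 without the low-Arntl and sex-label libraries, 8 by limma voom with quality weights and 0 to 1 on leaving out 1 library (Rasef). Changes of sign were Sln (1.17), Dkk3 (0.35) and Adipoq (0.47) without the Myl7-high libraries and Inmt in males alone (-0.91). The causes were not tested. The settings without doubted libraries, with a tamoxifen by sex term, by limma and against hours other than 10 h were chosen after seeing the data. No paired analysis was possible because the treatments share no library or animal numbers in the labels. With 8 libraries per treatment, small departures at low counts were not detectable.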
